A study of Mus musculus with 10 samples.

Results

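The 44 genes described here carry out DNA replication and mitosis in dividing cells. They were taken by symbol from a list of S phase and mitosis genes, all 44 were present among the 25239 genes of the count table, and all 44 were among the 18419 genes with enough reads to be tested. RNA from testes of C57BL/6 mice was sequenced at postnatal day 7 (P7) and postnatal day 4 (P4). At each stage there were 3 libraries from animals labelled cKO, whose genotype is given as Lsm7-flfl-stra8, and 2 from wild type (WT). The genotype label joins a floxed allele of Lsm7, which encodes a protein of the LSm rings that bind RNA in decay and splicing, to the name of Stra8, a gene of differentiating and early meiotic germ cells. It does not spell out a Cre driver or the floxed exons.

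Cells about to replicate their DNA load the MCM helicase onto origins with the help of Cdc6 and Cdt1, fire it with Cdc45 and the GINS complex, and copy the strands with the sliding clamp Pcna and with nucleotides made by ribonucleotide reductase. Later in the cycle Cdk1 with its B-type cyclins drives entry into mitosis, kinetochores attach chromosomes to the spindle, and checkpoint kinases hold back the anaphase activator Cdc20 until attachment is complete. In the testis of newborn mice both Sertoli cells and spermatogonia divide by mitosis, so these genes are read out from a mixture of cycling cells.

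The 10 libraries held 28.8 to 41.8 M reads each. Counts of the pair of P7 WT libraries were nearly as close as reads drawn from a single pool would be, with a chi-square of 1.98 per degree of freedom, where other pairs within a group had 23.5 to 123. They were therefore summed and counted as 1 sample, which left 9 samples. The labels do not say whether libraries came from separate animals, so the p-values cover the spread among these libraries, and that spread may be technical. Lsm7 had 45.2, 26.0 and 20.3 counts per 1 M reads (CPM) in the P7 samples labelled cKO, against 33.3 CPM in the P7 WT sample. At P4 it had 44.9, 50.5 and 43.6 CPM in the samples labelled cKO, against 36.2 and 25.7 CPM in WT. Lsm7 was thus not lower in the P4 samples labelled cKO, no test called it at either stage, and the group name below stands for the label. P7 cKO sample 1 stood apart from the rest: it was the lowest of all 9 samples for 20 of the 44 genes and the highest for 0, with a median deviation of -0.35 on the log2 scale from the mean of each gene.

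The tissue held more than germ cells, the cell type on the labels. The 8 Sertoli cell markers summed to 2862 to 3468 CPM in P7 cKO, 3013 CPM in P7 WT, 3683 to 4466 CPM in P4 cKO and 2300.5 and 3012 CPM in P4 WT. The 8 germ cell markers summed to 1199 to 1391 CPM in P7 cKO, 1507 CPM in P7 WT, 244 to 262 CPM in P4 cKO and 278 and 364 CPM in P4 WT. No marker of either list was at 0 in all samples. The 3 haemoglobin genes of the erythroid list had no read in any sample. Why they had none was not tested, so that list is not read as absence of blood cells.

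The 44 genes spanned a wide range of levels. As RPKM, which divides CPM by exon length in kilobases, and averaged over 9 samples, Pcna was the highest at 129.7, followed by the proliferation marker Mki67 at 66.3 and Top2a, the topoisomerase that untangles replicated chromosomes, at 56.4. The lowest were Ccne1 at 7.04 and Ccne2 at 1.62, the E cyclins that drive entry into S phase, and Cdc6 at 5.18 RPKM. These levels lay between the 97.6th percentile for Pcna and the 32.6th for Ccne2 among the genes tested. Between the lowest and the highest of the 9 samples the RPKM of a gene differed least for the spindle assembly factor Tpx2, 1.44-fold, and most for Nusap1, 3.5-fold, and Cenpf, 3.46-fold.

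The sequences upstream of these genes differed between those of replication and those of mitosis. RefSeq promoters (build GRCm38.p6, 250 bases before to 50 after the annotated start) were found for 37 of the 44 genes, 40 promoters in all. Each was searched on both strands for TTTGAA, the cell cycle homology element known from genes of G2 and mitosis, for TTTNNCGC, a form of the site of E2F factors, and for the CCAAT box. The first of these, TTTGAA, was present in 77.8% of 27 mitosis promoters, 16.7% of 12 replication promoters and 12.9% of 17892 promoters of tested genes. TTTNNCGC was present in 1 of the 27 mitosis promoters, 6 of the 12 replication promoters and 7.29% of all. CCAAT was frequent in both groups, at 74.1% and 83.3%, beside 37.6% of all. Motifs overlapped in 3 of the 40 promoters, and a match of letters is not evidence of a bound site. The promoters below are those of genes on which the comparisons turn: Ttk and Ndc80 fell at P4, Cenpf and Cdk1 changed with age, and Mcm3 and Mcm6 had the highest fold changes of the MCM subunits at P4 without passing the test. They are written 5′ to 3′ along the gene, with every match of the 3 motifs, on either strand, in capitals.
Ttk, chr9:83834439-83834738, plus strand: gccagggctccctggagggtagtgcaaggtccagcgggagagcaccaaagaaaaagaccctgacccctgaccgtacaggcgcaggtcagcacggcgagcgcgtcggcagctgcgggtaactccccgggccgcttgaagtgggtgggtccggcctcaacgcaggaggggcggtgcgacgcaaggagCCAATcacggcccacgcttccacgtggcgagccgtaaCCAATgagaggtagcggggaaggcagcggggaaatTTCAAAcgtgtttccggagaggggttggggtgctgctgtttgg
Ndc80, chr17:71526808-71527107, minus strand: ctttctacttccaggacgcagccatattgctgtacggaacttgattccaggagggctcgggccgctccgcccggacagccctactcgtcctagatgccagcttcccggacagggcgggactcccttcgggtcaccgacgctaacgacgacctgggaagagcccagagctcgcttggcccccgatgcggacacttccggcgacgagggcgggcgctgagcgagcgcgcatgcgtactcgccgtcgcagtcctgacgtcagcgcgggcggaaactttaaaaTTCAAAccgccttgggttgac
Cenpf, chr1:189688037-189688336, minus strand: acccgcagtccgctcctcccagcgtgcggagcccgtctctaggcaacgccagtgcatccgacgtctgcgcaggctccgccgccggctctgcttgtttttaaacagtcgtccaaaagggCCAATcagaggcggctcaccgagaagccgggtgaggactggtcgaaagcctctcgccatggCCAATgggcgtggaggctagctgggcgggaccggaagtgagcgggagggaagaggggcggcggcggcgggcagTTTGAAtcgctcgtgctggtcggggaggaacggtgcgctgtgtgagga
Cdk1, chr10:69352863-69353162, minus strand: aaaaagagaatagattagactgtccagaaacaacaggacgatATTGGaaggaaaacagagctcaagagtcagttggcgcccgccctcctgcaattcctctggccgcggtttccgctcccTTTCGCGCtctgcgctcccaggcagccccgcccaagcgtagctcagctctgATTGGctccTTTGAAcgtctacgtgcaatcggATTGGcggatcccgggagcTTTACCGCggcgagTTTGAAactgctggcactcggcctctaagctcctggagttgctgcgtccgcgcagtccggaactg
Mcm3, chr1:20820263-20820562, minus strand: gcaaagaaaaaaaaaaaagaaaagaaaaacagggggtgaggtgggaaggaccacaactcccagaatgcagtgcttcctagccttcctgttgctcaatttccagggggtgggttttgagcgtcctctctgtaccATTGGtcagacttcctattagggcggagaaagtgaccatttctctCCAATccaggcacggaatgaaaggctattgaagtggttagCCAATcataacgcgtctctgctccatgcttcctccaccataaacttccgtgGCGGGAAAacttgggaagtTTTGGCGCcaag
Mcm6, chr1:128359656-128359955, minus strand: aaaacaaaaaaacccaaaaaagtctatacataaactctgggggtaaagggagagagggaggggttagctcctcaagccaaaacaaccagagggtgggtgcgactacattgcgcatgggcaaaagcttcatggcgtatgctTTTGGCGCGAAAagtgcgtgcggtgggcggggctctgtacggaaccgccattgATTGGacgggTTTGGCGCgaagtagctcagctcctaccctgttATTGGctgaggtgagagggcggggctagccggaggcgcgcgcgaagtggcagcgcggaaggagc
The promoters of Ttk, Ndc80 and Cenpf hold TTTGAA or its reverse complement and no TTTNNCGC, those of Mcm3 and Mcm6 hold TTTNNCGC and no TTTGAA, and that of Cdk1 holds both. Other members did not follow this split. Of the other genes that fell at P4, Kif20b has TTTGAA in its promoter, while Bub1 and Cenpe have neither motif. The promoter of the replication gene Mcm2 holds TTTGAA and no TTTNNCGC.

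**Figure D1:**
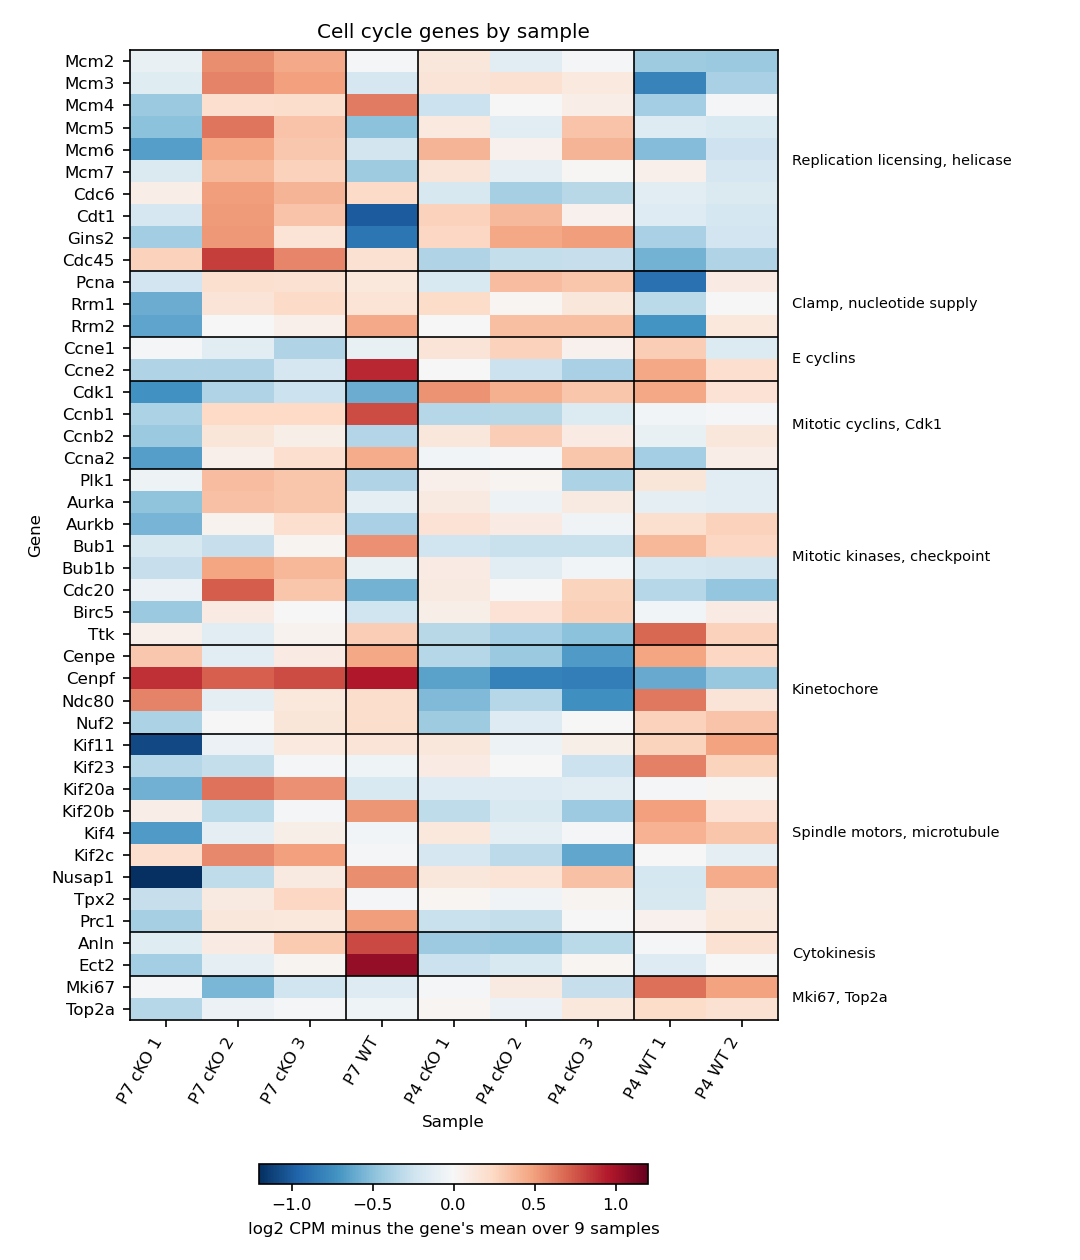
Level of each of the 44 genes in the 9 samples, as log2 CPM minus the mean of the gene over the samples (colour), with genes in rows grouped by role and samples in columns. P7 cKO sample 1 is low in many rows, Cenpf is high in all P7 samples, and in the P4 cKO columns the kinetochore rows are low.

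At P4, 5 genes of the kinetochore, the spindle and its checkpoint were lower in cKO testes. Of the 13 replication genes among the 44, 12 had positive fold changes that did not pass the test. Of the 44 genes, 5 fell and 0 rose (edgeR, adjusted p under 0.05), where 4.13% of all genes fell, 4.84% rose and 8.96% changed in either direction. The 5 were Ttk, Cenpe, Ndc80, Bub1 and Kif20b, all from the mitosis side of the list. The median log2 fold change was -0.23 over 29 mitosis genes and 0.43 over 13 replication genes, beside 0.00 over all genes. With library totals in place of TMM scaling the median over all genes moved to -0.16, and those of the mitosis and replication genes to -0.39 and 0.27. Sums over the 2 sides restate the same values, with most weight on the highest genes. The replication genes together had 0.449, 0.444 and 0.493 of the summed CPM of the mitosis genes in P4 cKO, against 0.252 and 0.314 in P4 WT. All 3 cKO samples lay above both WT samples in this ratio. The largest part of the mitosis sum, which averaged 3122 CPM in P4 cKO and 3891 CPM in P4 WT, was Mki67, at 622.5 and 967 CPM.

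Ttk, the kinase that starts the spindle assembly checkpoint, had 37.9, 35.9 and 33.9 CPM in P4 cKO, against 76.5 and 57.7 CPM in P4 WT. The groups did not overlap, and the log2 fold change was -0.90 (SE 0.17, adjusted p = 0.0178). Bub1, the checkpoint kinase at the kinetochore, had 73.0, 71.8 and 71.9 CPM in P4 cKO, against 114 and 103 CPM in P4 WT, with the cKO samples close together and below both WT samples (-0.58, SE 0.16, adjusted p = 0.0414). Cenpe, a motor that brings chromosomes to the spindle equator, had 105, 97.5 and 83.1 CPM in P4 cKO, against 184 and 158 CPM in P4 WT (-0.85, SE 0.18, adjusted p = 0.0235). Here too every cKO sample was below every WT sample.

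Ndc80, a subunit of the complex that grips microtubules at the kinetochore, had 53.6, 61.1 and 46.5 CPM in P4 cKO, against 120.3 and 85.9 CPM in P4 WT. It had the lowest fold change of the 44 genes (-0.94, SE 0.23, adjusted p = 0.0318), with WT sample 1 well above WT sample 2. Its partner Nuf2 had 36.2, 43.5 and 48.2 CPM in P4 cKO, against 58.8 and 61.4 CPM in P4 WT, and did not pass (-0.50, adjusted p = 0.119). Kif20b, a motor of late mitosis, had 66.6, 72.6 and 61.0 CPM in P4 cKO, against 116 and 93.2 CPM in P4 WT (-0.65, SE 0.18, adjusted p = 0.045). Mki67, whose protein coats mitotic chromosomes, showed the same order of groups without passing the test: 635, 697 and 535 CPM in P4 cKO, against 1027 and 907 CPM in P4 WT (-0.64, SE 0.20, adjusted p = 0.0644).

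Counted over whole groups, all P4 cKO samples lay below both WT samples for 20 of the 44 genes and above both for 10, beside 25.6% and 24.1% of all genes tested. Those below included 4 of 4 kinetochore genes and 7 of 9 spindle genes. Those above included 6 of 10 licensing and helicase genes. The 8 mitotic kinase, checkpoint and activator genes were split, with 3 below and 3 above. Mcm3, a subunit of the helicase ring, had 162, 165 and 158 CPM in P4 cKO, against 83.2 and 111 CPM in P4 WT, a separated pair of groups that did not pass (0.73, SE 0.23, adjusted p = 0.0629). Mcm6 of the same ring had 215, 168 and 215 CPM in P4 cKO, against 113 and 136 CPM in P4 WT (0.68, SE 0.29, adjusted p = 0.148). Gins2, a subunit of the GINS complex, had 20.3, 23.6 and 24.3 CPM in P4 cKO, against 13.1 and 14.6 CPM in P4 WT (0.71, adjusted p = 0.0992), and shares 118 bases of exon with Gse1 on the other strand. Nuf2, Mcm3, Mcm6 and Gins2 are outside the fixed naming rule and were chosen after their values were seen. Mcm2 (0.43, adjusted p = 0.18) and Pcna (0.51, adjusted p = 0.25) did not pass, and for Pcna the groups overlapped, with 139.8, 206 and 199.6 CPM in P4 cKO against 85.5 and 169.7 CPM in P4 WT. In all, the 39 genes that did not pass had fold changes from -0.64 to 0.73. They include Cdk1 (0.11, adjusted p = 0.725), Ccnb1 (-0.25, 0.418), Ccne1 (0.08, 0.842) and Top2a (-0.18, 0.505).

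**Figure D2:**
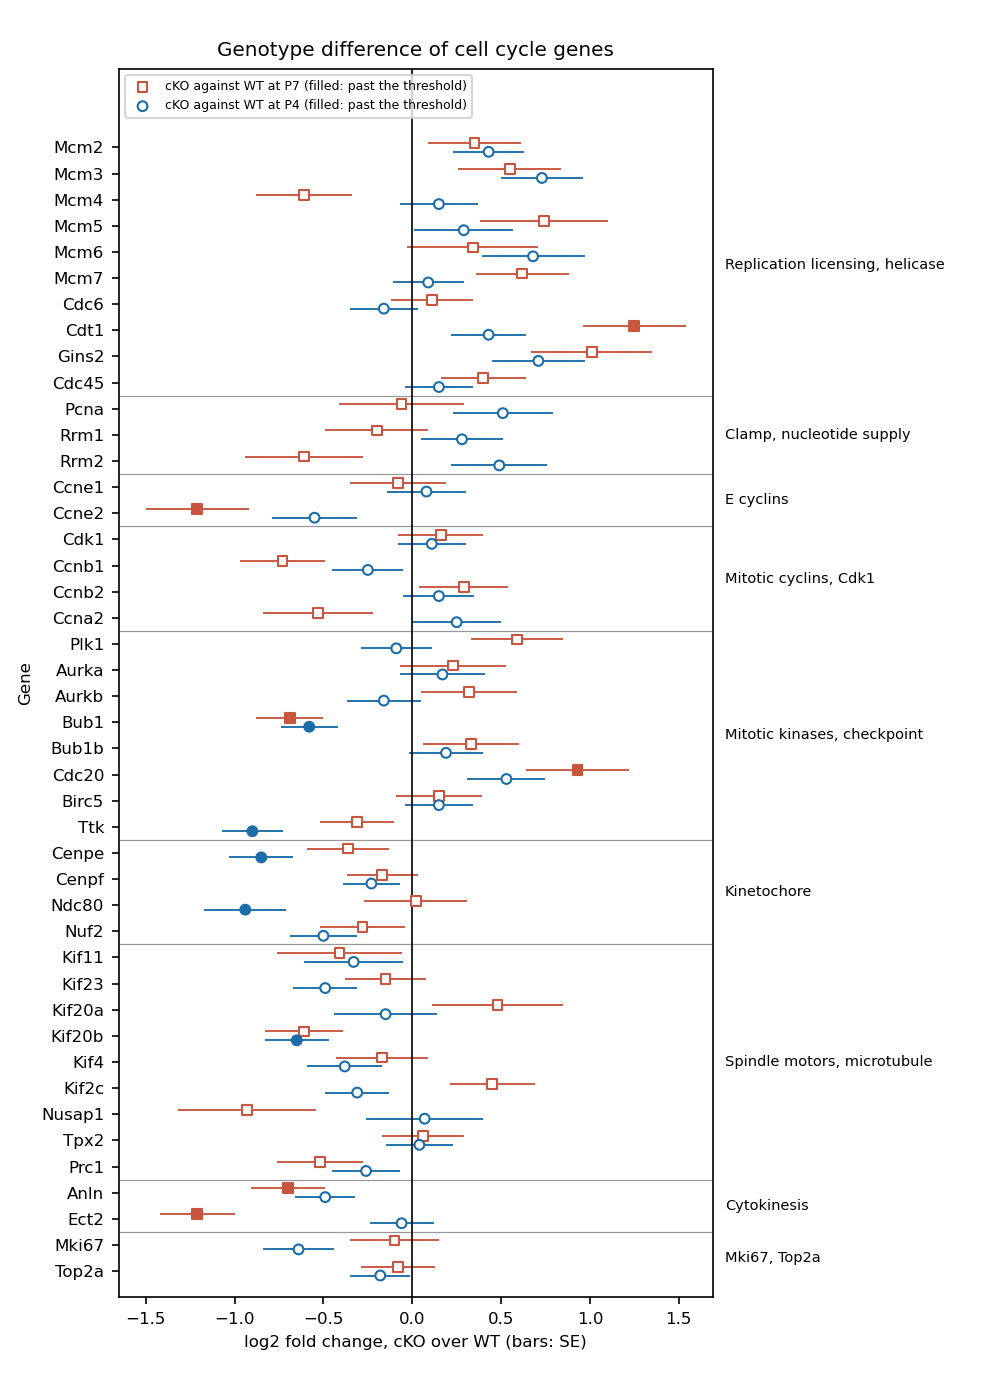
Log2 fold change of cKO over WT for each gene (x axis, bars are standard errors), with genes on the y axis grouped by role, squares for P7 and circles for P4, and filled symbols past the threshold. At P4 the filled circles are Bub1, Ttk, Cenpe, Ndc80 and Kif20b, all left of 0, while 12 of 13 replication genes lie right of 0.

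The P4 calls depended on single libraries. No member passed without P4 WT sample 1, P4 cKO sample 2 or P4 cKO sample 3, with Ttk, Cenpe, Ndc80, Bub1 and Kif20b at adjusted p of 0.222 to 0.364, 0.0676 to 0.113 and 0.0766 to 0.144 in turn. Over the whole table those 3 fits called 0.011%, 0.0706% and 0.0602% of all genes in the same order, so the loss was not limited to these members. There were 2 without P4 cKO sample 1, where 3.12% of all genes passed, 3 without P4 WT sample 2 (4.45%), P7 cKO sample 2 (6.76%) or P7 cKO sample 3 (6.07%), and 12 without P7 cKO sample 1 (22.7%), which enters through the shared estimate of spread. In that last fit 8 fell, among them all 5 above, and 4 rose, namely Mcm3 (adjusted p = 0.00697), Mcm6 (0.0133), Gins2 (0.015) and Cdc20 (0.0337). Genes listed as cell type markers moved in the same comparison, where 4.13% of all genes fell and 4.84% rose. Of 7 meiotic germ cell markers 6 fell, with sums of 61.5, 60.2 and 49.5 CPM in P4 cKO against 167 and 150.5 CPM in P4 WT. The name of that list does not show that meiotic cells were present at P4 or P7. Of the 8 germ cell markers 2 fell, and of the 8 Sertoli markers 3 rose. So did 3 of 7 peritubular and stromal markers (sums of 4529 to 5956 CPM in P4 cKO, against 3825 and 4305 CPM in P4 WT), 2 of 6 Leydig markers and 3 of 5 macrophage markers, while 0 of 4 endothelial markers and 0 of 6 and 0 of 5 markers of undifferentiated and differentiating spermatogonia passed by edgeR. None of these was at 0 in all samples, and their part in the result was not tested. In bulk RNA, fewer cells of a type and less RNA per cell cannot be told apart.

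At P7 the share of the 44 genes called was near that of all genes, so it is not read as a result about these members. Of the 44 genes 2 rose, Cdt1 and Cdc20, and 4 fell, Ect2, Ccne2, Bub1 and Anln (edgeR). These were 13.6% of the 44, where 17.0% of all genes changed, with 7.26% rising and 9.72% falling. Which share was higher depended on the setting: without P7 cKO sample 1 it was 31.8% of the 44 and 26.9% of all genes. With library totals in place of TMM scaling 3 rose and 2 fell, and the median moved to 0.04 over the members and to 0.19 over all genes. The median log2 fold change was -0.07 over the members, 0.35 over the replication genes and -0.15 over the mitosis genes, beside 0.08 over all genes. Only the WT value of 1 summed sample stands against 3 cKO samples here, and the test takes the spread of the lone sample from the other groups.

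Ect2, the exchange factor that sets the cleavage furrow, had 37.1, 45.5 and 50.2 CPM in P7 cKO, against 102 CPM in P7 WT, the highest of the 9 samples (-1.21, SE 0.21, adjusted p = 0.00823). The pair of P7 WT libraries had 2953 and 2948 reads for it. Anln, a scaffold of the contractile ring, had 71.9, 85.5 and 98.8 CPM in P7 cKO, against 138 CPM in P7 WT (-0.70, SE 0.21, adjusted p = 0.0426). Ect2 and Anln were the 2 genes grouped here under cytokinesis. The 9 genes grouped with the spindle include Kif20a, a motor of cytokinesis, at 0.48. Of these 9, 0 passed at P7 by edgeR, where 17.0% of all genes did, with 3 positive and 6 negative fold changes. Bub1 had 75.7, 71.3 and 88.3 CPM in P7 cKO, against 126 CPM in P7 WT (-0.69, SE 0.19, adjusted p = 0.033), and was the gene called at both stages.

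Cdt1, which loads the helicase onto origins, had 60.5, 99.1 and 88.1 CPM in P7 cKO, against 34.8 CPM in P7 WT (1.25, SE 0.29, adjusted p = 0.0167). Cdc20, the activator of the anaphase-promoting complex, had 58.1, 101 and 76.5 CPM in P7 cKO, against 41.1 CPM in P7 WT (0.93, SE 0.29, adjusted p = 0.0458). In both, cKO sample 1 was the nearest to the WT value. Ccne2 had 3.86, 3.87 and 4.33 CPM in P7 cKO, against 9.28 CPM in P7 WT (-1.21, SE 0.29, adjusted p = 0.0187). Its exons share 1734 bases with those of Ints8 on the other strand, and those of Cdc20 share 52 bases with Elovl1. As the strand setting of the counting is not given in the sources used here, both counts are uncertain.

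The other 38 genes did not pass at P7, with fold changes from -0.93 for Nusap1 to 1.01 for Gins2. Ccnb1, the cyclin partner of Cdk1 at mitotic entry, had 80.9, 124 and 124 CPM in P7 cKO, against 182 CPM in P7 WT (-0.73, SE 0.24, adjusted p = 0.0585). The fold changes of Mcm2 (0.35, adjusted p = 0.362), Cdk1 (0.16, 0.663), Mki67 (-0.10, 0.815), Top2a (-0.08, 0.816), Pcna (-0.06, 0.925) and Ccne1 (-0.08, 0.862) lay between -0.10 and 0.35, with standard errors of 0.21 to 0.35. Mki67 had 637, 444 and 550.3 CPM in P7 cKO and 582 CPM in P7 WT, with the WT value inside the range of cKO.

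**Figure D3:**
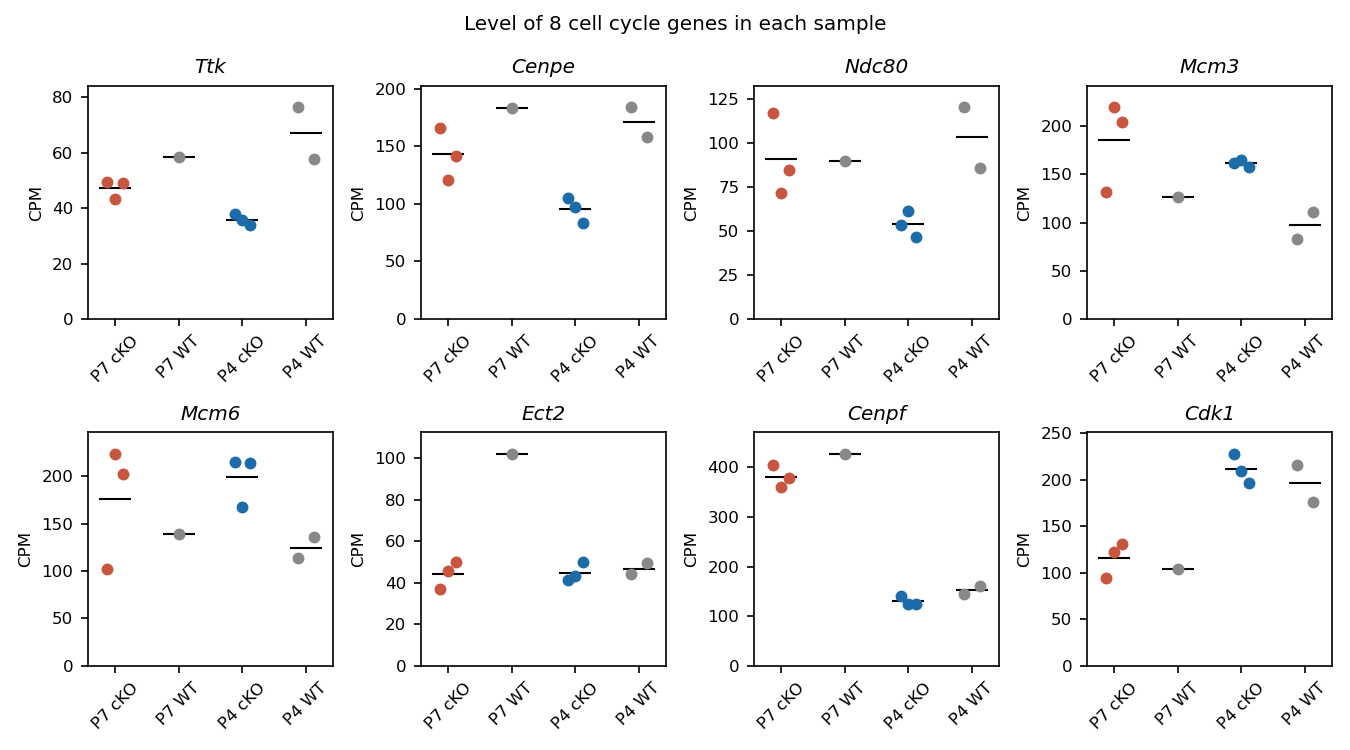
CPM of 8 genes in each sample (points), with the group mean as a line, y axes starting at 0 and groups on the x axis. For Ttk, Cenpe and Ndc80 the P4 cKO points lie below the P4 WT points, for Ect2 the P7 WT sample stands above all others, and Cenpf and Cdk1 differ between P7 and P4 in both genotypes.

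Without P7 cKO sample 2 only Ect2 passed at P7 (adjusted p = 0.0358), where 5.27% of all genes did, and without P4 cKO sample 2 there were 3, where 10.9% did. Without P7 cKO sample 1 there were 14, among them all 6 above, where 26.9% of all genes passed. Of the 14, 8 rose, 5 of them replication genes (Mcm3, Mcm5, Mcm7, Cdt1 and Gins2), and 6 fell. Of the 6 calls, leaving out a library ended those of Cdt1 (0.0509) and Ccne2 (0.061) without P7 cKO sample 2, and that of Bub1 without P7 cKO sample 2 (0.0943) or P4 cKO sample 2 (0.0612). Anln and Cdc20 did not pass in 6 and 7 of the 10 fits that left out a library, with adjusted p up to 0.0964 and 0.104. Fitted without the P4 samples, none of the 6 passed by edgeR, nor did any gene of the table, with 8 members at an unadjusted p under 0.05, and the adjusted p ran from 0.0663 for Ect2 to 0.161 for Cdc20. The meiotic markers moved here as well: 5 of 7 fell, with sums of 371, 194 and 229 CPM in P7 cKO against 682 CPM in P7 WT. Of the 8 germ cell markers 2 rose and 1 fell, where 7.26% of all genes rose and 9.72% fell. None was at 0 in all samples, and their part was not tested.

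A property that the list did not use went along with the P7 fold changes. The GC content of the longest annotated transcript ran from 36.3% for Ccne2 and 39.4% for Kif20b to 57.8% for Cdt1. Its median was 49.3% over the replication genes and 46.1% over the mitosis genes. Within these it was 51.8% over the licensing and helicase genes and 42.7% over the kinetochore genes, so the role groups differ in GC content too. Across the 44 genes the log2 fold change of cKO over WT was higher at higher GC content, with a Spearman correlation of 0.86 at P7 and 0.60 at P4, against 0.65 and 0.22 across 17989 tested genes with a known GC content. These are descriptions across genes, which share the same samples, and no p is given. The 15 genes with the lowest GC content, up to 44.2%, had a negative fold change in 14 of 15 cases at P7 (median -0.41). The 15 with the highest, from 49.3%, had a positive one in 14 of 15 (median 0.45). Leaving out P7 cKO sample 1 left the correlation at 0.86 at P7.

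When exon length and GC content entered the fit as offsets, 0 of the 44 genes passed at P7 by edgeR, with 3 at an unadjusted p under 0.05, where 0.0111% of all genes passed, and the median of the members was 0.34 in place of -0.07. The fold change was then -0.33 for Ect2, 0.52 for Cdt1, -0.12 for Ccne2, 0.29 for Cdc20, -0.13 for Anln and, with its sign turned, 0.14 for Bub1. At P4 1 gene passed with offsets, Ttk (-0.81, adjusted p = 0.046), where 3.4% of all genes did. The calls of Ndc80 (-0.90, adjusted p = 0.0588), Cenpe (-0.66, 0.0826), Bub1 (-0.44, 0.0888) and Kif20b (-0.44, 0.164) were lost, with the same sign as before. At P4 the medians of the kinetochore genes (-0.54 in place of -0.67) and of the replication genes (0.34 in place of 0.43) kept their sign. So did that of the mitosis genes (-0.19 in place of -0.23), beside -0.08 over all genes. The median of the mitotic kinase and checkpoint genes turned from 0.03 to -0.15. At P7 the median with offsets was 0.36 over the replication genes and 0.32 over the mitosis genes, in place of 0.35 and -0.15. Their contrast was thus not seen at P7 with offsets. The kinetochore median at P7 turned from -0.22 to 0.52. Between the ages 7 genes rose and 1 fell with offsets in cKO, where 31.9% of all genes passed. In WT 1 rose, Cenpf (1.01, adjusted p = 0.0128), and 3 fell, namely Cdk1 (-1.19, 0.0104), Top2a (-0.76, 0.0297) and Mki67 (-1.05, 0.0493), where 16.7% of all genes passed. The median of the mitosis genes in WT was then -0.41 in place of -0.09. With offsets 0 had an interaction by edgeR, with 10 at an unadjusted p under 0.05, where 0.00556% of all genes passed. DESeq2, without offsets, called 8 genes in each of the 4 comparisons, where it called 23.3% of all genes for cKO over WT at P7, 16.4% at P4, 32.9% for P7 over P4 in cKO and 27.0% in WT.

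**Figure D4:**
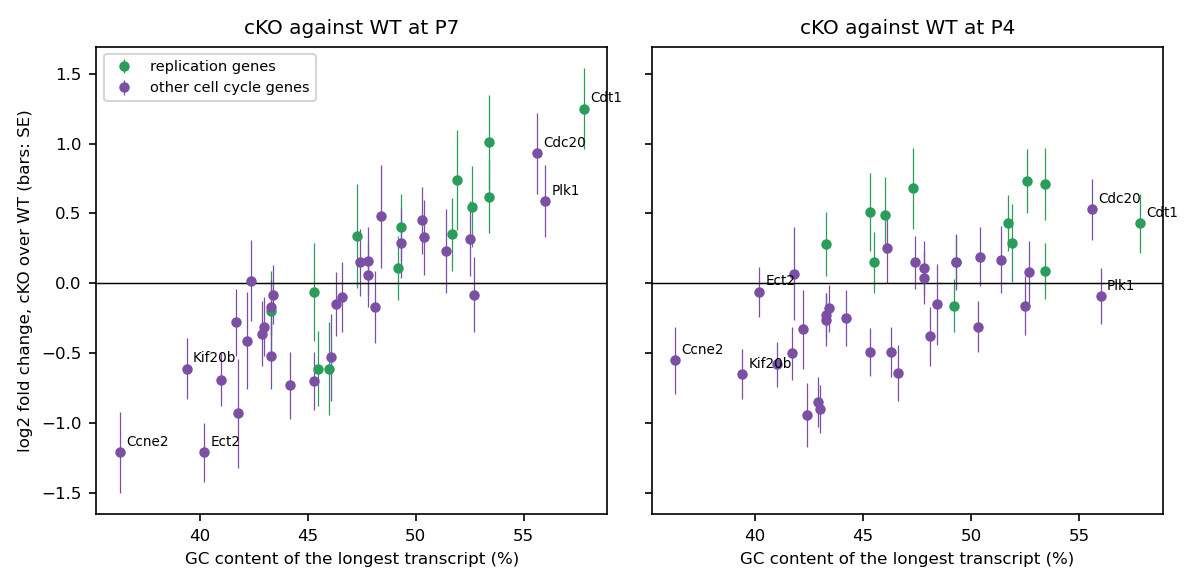
Log2 fold change of cKO over WT (y axis, bars are standard errors) against the GC content of the longest transcript (x axis, percent), for P7 on the left and P4 on the right, with replication genes in green and the other genes in purple. At P7 the points climb from Ccne2 at 36.3% GC to Cdt1 at 57.8% GC.

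Between P7 and P4 the genes did not move together. In cKO testes 7 rose and 1 fell, where 14.5% of all genes rose, 14.7% fell and 29.2% changed. In WT testes 4 rose and 1 fell, where 11.8% of all genes rose, 9.97% fell and 21.8% changed. With library totals 10 rose and 1 fell in cKO, where the median over all genes moved to 0.18, and 2 rose and 2 fell in WT, where it moved to -0.11 and that of the members to -0.06. The medians were 0.07 in cKO and 0.03 in WT, beside 0.00 and -0.03 over all genes. The comparison in WT shares the P7 WT sample with the genotype comparison at P7 and the P4 WT samples with that at P4, so the values are given side by side and not as independent results.

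Cenpf, a large protein that gathers at kinetochores late in the cycle, had 404, 360.1 and 379 CPM in P7 cKO, against 141, 125 and 124 CPM in P4 cKO (1.55, SE 0.15, adjusted p = 4.51e-05). In WT it had 428 CPM at P7, against 145 and 160.1 CPM at P4 (1.49, SE 0.21, adjusted p = 0.00136). The stages were far apart in both genotypes, and this was the largest change with age among the 44 genes. Cdk1, the kinase that drives mitotic entry, went the other way, with 94.8, 122 and 131 CPM in P7 cKO, against 228, 209.9 and 197 CPM in P4 cKO (-0.87, SE 0.17, adjusted p = 0.00288). In WT it had 104 CPM at P7, against 216 and 177 CPM at P4 (-0.92, SE 0.26, adjusted p = 0.0275). Cenpf kept its call in all 20 alternatives in each genotype, while Cdk1 kept it in 19 of 20 in cKO and 18 of 20 in WT, where it was lost without P4 WT sample 1 (adjusted p = 0.116).

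Anln rose in both genotypes, with 71.9, 85.5 and 98.8 CPM in P7 cKO against 58.9, 58.3 and 63.5 CPM in P4 cKO (0.50, SE 0.15, adjusted p = 0.0301), and with 138 CPM in P7 WT against 78.6 and 90.2 CPM in P4 WT (0.71, SE 0.23, adjusted p = 0.0428). In cKO, Cdc45, which joins the helicase when origins fire, passed with 39.9, 58.5 and 49.4 CPM at P7 against 25.6, 27.0 and 27.2 CPM at P4 (0.89, SE 0.17, adjusted p = 0.00283). Cdc45 in WT, at 37.4 CPM at P7 against 22.2 and 25.6 CPM at P4, had a fold change of 0.64 that did not pass (adjusted p = 0.0841). Kif2c, a microtubule depolymerase, had 67.8, 88.0 and 82.8 CPM in P7 cKO against 51.4, 47.6 and 38.3 CPM in P4 cKO (0.80, SE 0.16, adjusted p = 0.00427), while in WT it had 58.2 CPM at P7 against 59.0 and 54.7 CPM at P4 (0.03, adjusted p = 0.936). Also in cKO, the licensing factor Cdc6 (0.65, adjusted p = 0.0137), Ndc80 (0.76, 0.0183) and Cenpe (0.59, 0.0207) rose. Those 3 did not pass in WT (0.38, -0.20 and 0.10).

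In WT, Ect2 passed with 102 CPM at P7 against 44.2 and 49.3 CPM at P4 (1.13, SE 0.23, adjusted p = 0.00744), while in cKO it had 37.1, 45.5 and 50.2 CPM at P7 against 41.1, 43.4 and 49.9 CPM at P4 (-0.02, adjusted p = 0.95). Ccnb1 passed in WT too, with 182 CPM at P7 against 103 and 104 CPM at P4 (0.81, SE 0.26, adjusted p = 0.044), and had 80.9, 124 and 124 CPM in P7 cKO against 83.4, 83.6 and 94.3 CPM in P4 cKO (0.34, adjusted p = 0.178). Not past the threshold with age were, in cKO and WT in turn, Mki67 (-0.20 and -0.73), Top2a (-0.17 and -0.26), Pcna (-0.13 and 0.44), Mcm2 (0.34 and 0.42) and Ccne1 (-0.33 and -0.17), though Mki67 and Top2a fell in WT with offsets for exon length and GC content, as given above. The fold changes of all genes that did not pass ran from -0.60 to 0.45 in cKO and from -0.82 to 0.83 in WT. When single libraries were left out, the count in WT was 1 without P4 WT sample 1, where 6.51% of all genes passed, 10 without P7 cKO sample 1 (34.5%) and 3 when any single P4 cKO sample, P7 cKO sample 2 or the second P7 WT library was left out (17.1% to 21.2%). Cenpf was the gene that passed without P4 WT sample 1, where the adjusted p was 0.182 for Anln, 0.145 for Ccnb1 and 0.0538 for Ect2. In cKO the count was 5 without P4 cKO sample 2 (19.1%) or 3 (19.5%) and 12 without P7 cKO sample 1 (30.4%). The call of Anln there was lost without any 1 of the 5 other cKO samples, with adjusted p of 0.0562 to 0.115.

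Markers of several cell types differed over the same ages, where 14.5% of all genes rose and 14.7% fell in cKO, and 11.8% rose and 9.97% fell in WT. All 8 germ cell markers rose in cKO and 7 of 8 in WT. All 5 markers of differentiating spermatogonia rose in each genotype, with sums of 236 to 292 CPM in P7 cKO and 258 CPM in P7 WT, against 36.1 to 45.6 CPM in P4 cKO and 43.3 and 44.2 CPM in P4 WT. Of 7 meiotic markers 6 rose in cKO and 5 in WT, and of 6 markers of undifferentiated spermatogonia 3 rose and 1 fell in cKO and 1 rose in WT. Of 7 peritubular and stromal markers 4 fell in cKO and 2 in WT, with sums of 2029.6 to 3030.5 CPM in P7 cKO and 2208 CPM in P7 WT, against 4529 to 5956 CPM in P4 cKO and 3825 and 4305 CPM in P4 WT. Of 6 Leydig markers 3 fell in cKO and 1 in WT, of 4 endothelial markers 3 fell in each genotype, and of 5 macrophage markers 5 fell in cKO and 0 in WT by edgeR, with 1 at an unadjusted p under 0.05. Of the 8 Sertoli markers 2 fell in cKO, and 1 rose and 1 fell in WT. None was at 0 in all samples, and their part in the changes with age was not tested.

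**Figure D5:**
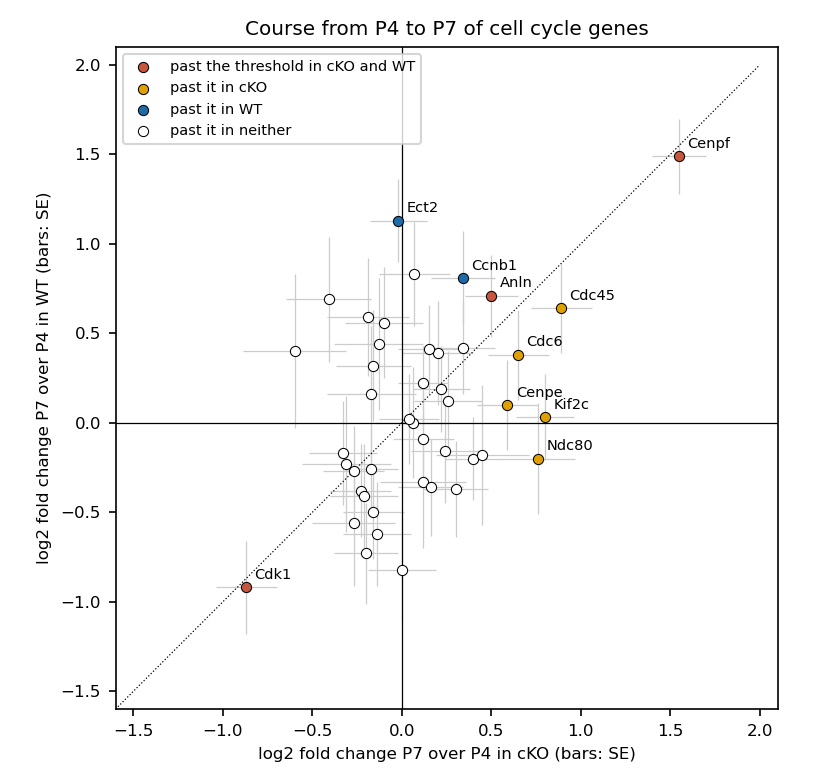
Log2 fold change of P7 over P4 in cKO (x axis) and in WT (y axis) for each of the 44 genes, with standard errors as bars, colours for the calls and a dotted line of equal change. Cenpf and Cdk1 lie near the line at its ends, Ect2 lies at 1.13 in WT and -0.02 in cKO, and Kif2c at 0.80 in cKO and 0.03 in WT.

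Whether these courses differed between the genotypes was tested directly with the interaction of genotype and stage. By edgeR 0 of the 44 genes passed, as did 0.0% of all genes, and 5 had an unadjusted p under 0.05, where 25.1% of all genes did. The nearest was Ect2, with an interaction of -1.15 on the log2 scale (SE 0.28, adjusted p = 0.0715), the only member that passed by DESeq2 (-1.12, adjusted p = 0.0139), where 9.34% of all genes did, and it also passed without P7 cKO sample 1 (-1.04, 0.0305). Without that sample Cdt1 (1.00, adjusted p = 0.0372) and Kif20a, a motor of cytokinesis (0.93, 0.0352), passed as well, where 7.94% of all genes did, and without P4 WT sample 2 it was 3.9% of all genes and 0 members. Exons of Kif20a share 1115 bases with Cdc23 and 229 with Brd8 on the other strand, so its count is uncertain. Ect2, Cdt1 and Kif20a were chosen here after their values were seen. The interaction was -0.57 for Pcna, 0.54 for Mki67, -0.48 for Ccnb1, -0.15 for Ccne1, 0.09 for Top2a, -0.08 for Mcm2 and 0.05 for Cdk1, with adjusted p of 0.316 or more.

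Other genes of the same processes, from lists outside the 44, give the setting. As a background to their counts, 7.26% of all genes rose and 9.72% fell in cKO at P7, and 4.84% rose and 4.13% fell at P4. Of 43 other replication genes 7 rose and 2 fell in cKO at P7 (median 0.09), and 3 rose and 3 fell at P4 (median -0.03). The medians over all genes were 0.08 and 0.0. At P4 20 of the 43 had a positive fold change and 23 a negative one. The mostly positive fold changes of the 13 replication members were thus not seen over this list. Orc5, a subunit of the origin recognition complex, had 33.9, 32.9 and 32.3 CPM in P4 cKO, against 73.7 and 56.2 CPM in P4 WT (-0.98, SE 0.17, adjusted p = 0.0152), below WT in every sample and opposite in sign to Mcm3 and Mcm6. Tk1, which recycles thymidine, had 47.8, 68.8 and 59.1 CPM in P7 cKO, against 26.6 CPM in P7 WT (1.14, SE 0.24, adjusted p = 0.0137).

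Of 48 other mitosis genes 5 rose and 7 fell in cKO at P7 (median -0.02), and 0 rose and 5 fell at P4 (median -0.20). Smc4, the core of condensin, had 211, 220.4 and 221 CPM in P4 cKO, against 446 and 371 CPM in P4 WT (-0.91, SE 0.19, adjusted p = 0.0226). Kif15, a spindle motor, had 54.3, 47.4 and 50.1 CPM in P4 cKO, against 104 and 83.7 CPM in P4 WT (-0.89, SE 0.18, adjusted p = 0.0209). Both lay below WT in every cKO sample. With age, Espl1, the protease that releases sister chromatids, rose in cKO (1.26, SE 0.17, adjusted p = 0.000314), as did the kinetochore gene Dsn1 (0.94, SE 0.14, adjusted p = 0.000621), and Cdca3 fell in WT (-1.18, SE 0.24, adjusted p = 0.0068).

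Of 24 genes of G1 control and cell cycle transcription 0 rose and 5 fell in cKO at P7, and 1 rose and 1 fell at P4. Cyclin D1 (Ccnd1), the partner of Cdk4 and Cdk6, had 13.7, 9.35 and 14.4 CPM in P4 cKO, against 5.33 and 6.16 CPM in P4 WT, with every cKO sample above WT (1.12, SE 0.25, adjusted p = 0.0262). Rb1, which restrains E2F factors, had 48.5, 31.4 and 40.0 CPM in P7 cKO, against 98.5 CPM in P7 WT (-1.30, SE 0.23, adjusted p = 0.00819). Lin54, which binds the cell cycle homology element, averaged 17.4 ± 2.42 CPM in P7 cKO (SD, n = 3), against 42.2 CPM in P7 WT (-1.28, SE 0.26, adjusted p = 0.0112), and E2f5 fell too (-0.91, SE 0.20, adjusted p = 0.0151). With age Ccnd1 rose in cKO (1.45, SE 0.22, adjusted p = 0.000664) and WT (2.35, SE 0.31, adjusted p = 0.0012), Rb1 rose in WT (1.29, SE 0.25, adjusted p = 0.00592) and Tk1 fell in WT (-1.38, SE 0.26, adjusted p = 0.00494). With exon length and GC offsets the calls at P7 were lost for Rb1 (-0.46, adjusted p = 0.426), Lin54 (-0.48, 0.343), E2f5 (-0.78, 0.16) and Tk1 (0.73, 0.206), and those at P4 held for Ccnd1 (1.07, 0.0433), Orc5 (-0.87, 0.0435), Kif15 (-0.78, 0.046) and Smc4 (-0.76, 0.0474). The fold change of Ccnd1 at P7 was 0.22 (adjusted p = 0.639). Cyclin D2 (Ccnd2) had fold changes of cKO over WT of -0.01 at P7 and 0.86 at P4, and of P7 over P4 of -1.17 in cKO and -0.30 in WT, with no call. E2f1, a transcription factor of S phase genes, had 0.54, 0.32, -0.02 and -0.25 for the same comparisons, also with no call. No interaction passed in these lists by edgeR, and that of Ccnd1 was -0.89 (adjusted p = 0.176), of Ccnd2 -0.87 (0.501), of E2f1 0.22 (0.775) and of Cdkn1a -0.12 (0.897).

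Of 7 inhibitors of cyclin-dependent kinases 1 rose and 1 fell in cKO at P7, and 0 passed at P4 by edgeR, with 2 at an unadjusted p under 0.05. Cdkn2a, which encodes inhibitors of Cdk4 and Cdk6 and of Mdm2, was the gene that rose at P7, with 35.7, 39.9 and 25.0 CPM in P7 cKO against 10.9 CPM in P7 WT (1.62, SE 0.42, adjusted p = 0.0251). It rose with age in cKO, with 35.7, 39.9 and 25.0 CPM at P7 against 6.42, 5.48 and 4.66 CPM at P4 (2.60, SE 0.29, adjusted p = 0.000109), and in WT, with 10.9 CPM at P7 against 2.18 and 4.57 CPM at P4 (1.68, SE 0.40, adjusted p = 0.014). Its interaction was 0.92 (adjusted p = 0.269). The naming rule covers Cdkn2a for its rise with age in cKO, and its other comparisons are given in addition. Its call at P7 did not hold with the compared samples alone, where 0.0% of all genes passed by edgeR. Cdkn1a, the p53 target that arrests the cycle, was low throughout, with 3.46, 4.32 and 4.11 CPM in P7 cKO, 3.12 CPM in P7 WT, 3.21, 4.90 and 5.64 CPM in P4 cKO and 2.85 and 3.77 CPM in P4 WT. Its fold change of cKO over WT was 0.35 at P7 (adjusted p = 0.564) and 0.47 at P4 (0.329), and that of P7 over P4 was -0.21 in cKO (0.596) and -0.09 in WT (0.897).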

How the data were processed

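RNA from mouse testes was sequenced as TruSeq libraries after TRIzol extraction, per the labels' protocols. Trim Galore 0.6.10, STAR 2.7.11a, SAMtools 1.6 and featureCounts of Subread 2.0.6 were used with build GRCm38, per the submitters' processing notes, and the strand setting is not given in the sources used here. The deposited values are raw counts per gene, made by the authors. Between 67.8% and 80.0% of counts under 50 were even in each library, so that reads are not all independent molecules.

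Counts were fitted with edgeR 4.0.16 in R 4.3.3 (TMM scaling, filterByExpr with a minimum count of 10, robust quasi-likelihood F test, Benjamini-Hochberg adjustment over 18419 genes, threshold 0.05). The fit used 9 samples with 5 residual degrees of freedom and a common biological coefficient of variation of 0.228. Column names of the count table were mapped to samples by their titles. CPM were computed from library sizes times TMM factors. Fold changes are log2, with SE from the fit. The test was checked on simulated counts. DESeq2 1.42.0 and other settings were alternatives.

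Genes named were members past the threshold, 7 fixed members (Mki67, Pcna, Mcm2, Cdk1, Ccnb1, Ccne1 and Top2a), up to 4 genes of the other lists per comparison, and Cdkn1a, Ccnd1, Ccnd2 and E2f1. The members and lists were chosen with earlier results of these data known. GC content is that of the longest annotated transcript, promoters are from RefSeq, and erythroid markers and other lists were summed as CPM. Deviations of same-numbered cKO and WT libraries from their group means correlated at 0.35 and -0.17 at P4. The P7 WT libraries were too alike to give such a check. The labels state no pairing, so the replicate numbers were not taken as pairs.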

Additional observations from a re-analysis of the deposited data

How the results depend on the processing

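By default 5 members were called for cKO over WT at P4, 6 at P7, 5 for P7 over P4 in WT, 8 in cKO and 0 for the interaction. Leaving out a library gave 0 to 12 at P4, 1 to 14 at P7, 1 to 10 in WT, 5 to 12 in cKO and 0 to 3 for the interaction. RLE factors and other filters on low counts kept these counts within 1.5 times. The share of all genes called is given in parentheses. At P4 the count was 9 with library totals (11.2%), 8 with DESeq2 (16.4%), 8 with 10 separate libraries (16.4%), 11 with the compared samples alone (19.1%) and 1 with length and GC offsets (3.4%). At P7 it was 17 with 10 separate libraries (39.2%), 0 with offsets (0.0111%) and 0 with the compared samples alone (0.0%). In WT it was 8 with DESeq2 (27.0%) and 11 with 10 libraries (41.4%), and for the interaction 1 (9.34%) and 3 (17.6%). The cause was not tested.

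With a replicate block over all libraries the counts were 9 at P4 (15.5%), 18 at P7 (42.3%), 13 in WT (44.4%) and 8 for the interaction (24.5%). With a replicate block within stage they were 1 at P4 (2.84%), 16 at P7 (34.2%), 9 in WT (17.2%), 2 for the interaction (6.68%) and 1 in cKO (4.32%). The pairing is not given by the labels, so the block is only an alternative. It turned the sign of Ccne1 at P7 (0.01 and 0.03), of Cdkn1a (0.23), Ccnd2 (1.03) in WT, of Pcna (0.46), Cdkn1a (0.29) and E2f1 (0.05) in cKO, and of the interactions of Cdk1 (-0.08) and Cdkn1a (0.06).

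Other turned signs concerned fold changes that were not called, except Bub1 at P7 with offsets (0.14). Library totals turned Cdk1 (-0.05) and Ccne1 (-0.09) at P4, Mki67 (0.01), Pcna (0.05), Ccne1 (0.03), Top2a (0.03) and Ccnd2 (0.09) at P7, Pcna (0.05), Top2a (0.01) and E2f1 (0.15) in cKO, and the interactions of Mcm2 (0.19), Ccne1 (0.12) and Cdkn1a (0.15). Offsets turned Ccne1 (-0.12) at P4, Mki67 (0.44), Pcna (0.08), Top2a (0.63), Cdkn1a (-0.13), Ccnd2 (0.38) and E2f1 (-0.13) at P7, Cdkn1a (0.18) and E2f1 (0.20) in WT, and the interaction of E2f1 (-0.24). Ccnd2 at P7 was 0.01 with a minimum count of 50 and with 10 libraries, and E2f1 in cKO was 0.01 with the compared samples alone.

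Over the fits that left out a library, fold changes crossed 0 for Cdk1 (-0.03 to 0.26) and Ccne1 (-0.14 to 0.32) at P4, for Mki67 (-0.23 to 0.03), Pcna (-0.13 to 0.07), Ccne1 (-0.15 to 0.01), Top2a (-0.15 to 0.01) and Ccnd2 (-0.32 to 0.40) at P7, for Ccne1 (-0.38 to 0.06), Cdkn1a (-0.28 to 0.13) and Ccnd2 (-0.70 to 0.24) in WT, for E2f1 (-0.25 to 0.24) in cKO, for Mcm2 (-0.20 to 0.09), Cdk1 (-0.09 to 0.19), Ccne1 (-0.39 to 0.06), Cdkn1a (-0.34 to 0.07) and E2f1 (-0.00 to 0.49) for the interaction.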
